A study of Mus musculus with 9 samples.

Results

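The genes of the microtubule motors and of their track were compared between stroma of invasive cancer and stroma of prostate intraepithelial neoplasia (PIN) in CR2-TAg mice. Members were the genes whose symbol in the platform table begins with Kif and a digit, or with Kifc, Dync, Dynl, Dctn, Tuba, Tubb or Tubg, and 40 of the 8146 symbols on the array met this rule. They were read by 64 of the 17664 spotted cDNA clones, and clones of one symbol were averaged on each array. All 40 were tested among 8106 genes. By role they comprised 7 mitotic kinesins, 14 transport and ciliary kinesins, 12 subunits of cytoplasmic dynein and dynactin, 5 beta-tubulins and 2 subunits of the gamma-tubulin ring complex. Clones that the platform table assigns to several genes at once, such as 3 clones shared by Tuba1b and Tuba1a, were kept out of the gene values and are given apart. A clone shared by Dync1i1 and Col18a1, also kept out, differed by 0.06 between the groups on the log2 scale (invasive minus PIN).

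The stroma was cut by laser capture from frozen prostate sections of male FVB mice, all carrying SV40 large T antigen under cryptidin-2 regulatory elements, which drive it in neuroendocrine cells of the prostate. The invasive group held 6 mice of 24 weeks of age and the PIN group 3 mice of 10 weeks (replicates 2, 3 and 4), with 1 array a mouse, so age and stage changed together and cannot be told apart. The array of the fourth PIN mouse was not used here, and no stroma of mice without the transgene was part of the comparison. Each array gave, for every clone, the log2 ratio of the sample (Cy5) over a pool of 4 PIN samples (Cy3), without a dye swap, and the pool used for a PIN sample included that sample's own RNA. A ratio of this kind carries no level, and levels of different genes cannot be set against each other. In RNA of a whole tissue compartment, a larger number of cells of one type and more RNA per cell cannot be told apart.

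Kinesins and cytoplasmic dynein are motors that use ATP to walk along microtubules, polymers of alpha- and beta-tubulin that grow from gamma-tubulin rings. Most kinesins walk toward the growing plus end, while dynein, with its activator dynactin, walks toward the minus end. One set of kinesins is made mainly by dividing cells, where it builds the spindle, moves chromosomes and splits the daughter cells. The others carry vesicles, organelles and ciliary parts in resting cells as well. Stroma around tumors holds fibroblasts, endothelial cells, smooth muscle and leukocytes, any of which may divide or rest.

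Mitotic kinesins are among the classical cell cycle genes, whose promoters often hold a cell cycle homology region, read here as TTTGAA or its complement TTCAAA, and a CCAAT box, read as CCAAT or ATTGG. Promoters of RefSeq (GRCm38.p6, 250 bases before to 50 after the start) were read for 29 of the 40 genes. Dynlt1b and Tubb2b were not among these 29. The promoters of 3 mitotic kinesins that hold both motifs are shown first, with Kif3b, a transport kinesin, for contrast. Capitals mark the motifs on either strand. The windows are chr9:61946750-61947049 on the minus strand for Kif23, chr7:127042371-127042670 on the minus strand for Kif22, chr19:37376132-37376431 on the plus strand for Kif11 and chr2:153291166-153291465 on the plus strand for Kif3b.
Kif23: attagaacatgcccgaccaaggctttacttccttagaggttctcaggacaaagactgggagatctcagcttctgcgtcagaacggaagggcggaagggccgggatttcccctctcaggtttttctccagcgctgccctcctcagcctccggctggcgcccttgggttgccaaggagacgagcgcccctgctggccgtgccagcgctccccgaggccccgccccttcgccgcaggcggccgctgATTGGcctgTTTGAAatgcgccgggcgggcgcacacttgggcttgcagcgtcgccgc
Kif22: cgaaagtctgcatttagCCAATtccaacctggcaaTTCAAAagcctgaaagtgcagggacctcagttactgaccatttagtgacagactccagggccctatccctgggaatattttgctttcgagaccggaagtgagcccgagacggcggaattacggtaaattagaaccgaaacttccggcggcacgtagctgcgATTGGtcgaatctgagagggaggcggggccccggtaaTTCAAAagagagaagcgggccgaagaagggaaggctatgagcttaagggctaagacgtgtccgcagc
Kif11: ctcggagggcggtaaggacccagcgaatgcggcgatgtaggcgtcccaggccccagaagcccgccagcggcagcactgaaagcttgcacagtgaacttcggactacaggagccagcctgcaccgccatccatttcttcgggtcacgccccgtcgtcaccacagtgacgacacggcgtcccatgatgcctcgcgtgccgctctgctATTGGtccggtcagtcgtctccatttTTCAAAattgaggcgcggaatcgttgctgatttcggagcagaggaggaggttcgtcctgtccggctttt
Kif3b: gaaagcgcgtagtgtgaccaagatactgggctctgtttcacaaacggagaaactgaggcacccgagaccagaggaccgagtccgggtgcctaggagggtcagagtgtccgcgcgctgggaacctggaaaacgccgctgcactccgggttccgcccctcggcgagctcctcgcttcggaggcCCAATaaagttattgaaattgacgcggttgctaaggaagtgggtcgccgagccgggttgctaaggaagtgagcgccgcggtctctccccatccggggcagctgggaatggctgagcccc

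The table's start site is not always the 5' end of the gene. For 5 members it lies more than 1000 bases inside the gene as RefSeq draws it, 3852 bases for Kif2c, 1547 for Kif14, 9798 for Kif27, 1668 for Kif3a and 2234 for Kif26a, so these windows belong to internal starts. Among the 24 other members, the cell cycle homology letters were found in 3 of 5 mitotic kinesins (Kif23, Kif22 and Kif11), in 0 of 7 transport and ciliary kinesins, in 0 of 8 genes of dynein and dynactin and in 1 of 3 tubulins (Tubb4b), against 18.8% of 25078 promoters that meet the same limit of 1000 bases, a limit set after the windows were seen. Both motifs were held by 4 of the 24, the same 3 mitotic kinesins and Tubb4b (16.7%, against 7.38% of those promoters). With the internal windows counted, the cell cycle letters were in 5 of 7 mitotic kinesins, Kif2c and Kif14 added, and in 1 of 10 transport kinesins, Kif27, against 20.2% of all 27025 promoters. Kif23, Kif11, Kif22 and Tubb4b each showed a pair at close range. Kif22 held each motif at 2 sites, and Tubb4b held 5 CCAAT boxes and 1 cell cycle homology region. Kif23 and Kif11 held each motif at 1 site, with positions counted from the first transcribed base as 1. The CCAAT box began at -45 in Kif11 and -7 in Kif23. The cell cycle homology region began at -19 in Kif11 and at 3, past the start, in Kif23. Kif3b held the CCAAT letters alone, at -69, and the windows of Kif18a and Kif2a held neither motif. These matches describe letters in a window, and no binding was measured.

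Over the 40 genes, 2 were higher in invasive stroma with an adjusted p below 0.15 (limma, Benjamini-Hochberg over all genes, at the false discovery rate the authors chose), which is 5% of them against 3.75% of all genes. The 2 were Dynlt1b, a dynein light chain gene, and Kif23, a mitotic kinesin gene. None of the 40 was lower, against 1.89% of all genes. At an unadjusted p under 0.05 limma gave 7 members higher and 0 lower, against 744 higher and 470 lower of all 8106 genes. Every one of the 6 invasive values exceeded every PIN value in 4 of the 40 members (Dynlt1b, Kif23, Kif2c and Kif3b), against 4.86% of all genes. The invasive values lay under every PIN value in 0 members, against 2.99%. By the adjusted p, the share of members higher (5%) was near that of the array as a whole (3.75%). The differences were positive in 24 members and negative in 16, with a median of 0.09 on the log2 scale, against 0.02 for all genes.

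The classes lay apart in their medians. The mitotic kinesins had a median difference of 0.44 and the beta-tubulins one of 0.42, whereas transport and ciliary kinesins (-0.04), dynein and dynactin (-0.00) and the gamma-tubulin ring genes (-0.04) lay near the median of all genes. Of the 7 mitotic kinesins 6 were positive and 1 was higher by the test, of the 5 tubulins all were positive and 0 passed, and of the 14 transport kinesins 7 were positive, 7 negative and 0 passed. At an unadjusted p under 0.05 limma gave 3 mitotic kinesins, 2 tubulins, 1 transport kinesin and 1 dynein gene (Dynlt1b), all higher in invasive stroma. Of all 8106 genes it gave 744 higher and 470 lower. These are descriptions of the classes, with no test between them.

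**Figure D1:**
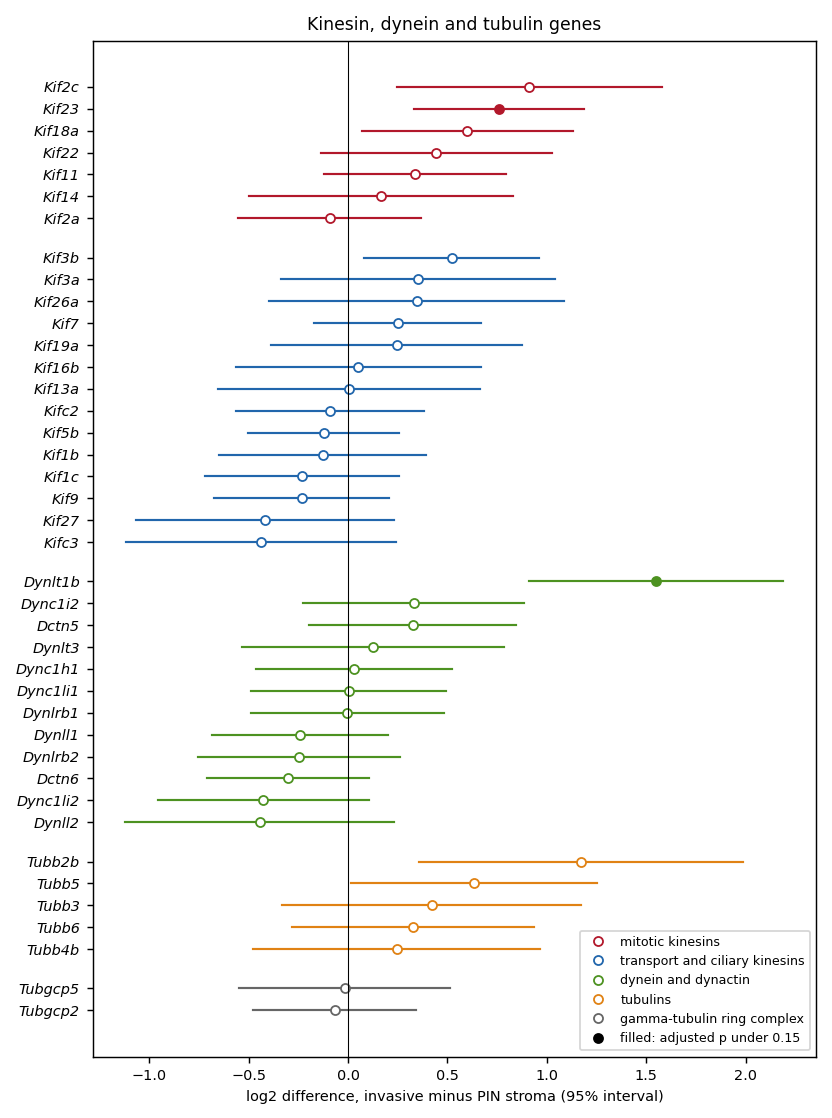
Log2 difference, invasive minus PIN stroma, of each of the 40 genes with its 95% interval from the limma fit (x axis), grouped by class (y axis); filled points passed at an adjusted p under 0.15. Only Kif23 and Dynlt1b are filled, most mitotic kinesins and all tubulins lie right of 0, and the transport kinesins lie on both sides.

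Kif23, the motor of the central spindle that bundles microtubules between the separating daughter cells, was higher in invasive stroma. Its log2 ratios ran from 0.30 to 0.98 on the invasive arrays (median 0.72), against -0.03, 0.10 and -0.24 on the PIN arrays. The groups did not overlap. Invasive stroma averaged 0.71 ± 0.25 (SD, n = 6) and PIN stroma -0.05 ± 0.17 (SD, n = 3), and the difference was 0.76 (SE 0.20), or 1.69-fold (adjusted p = 0.09059). The call was lost on leaving out invasive replicate 2 (adjusted p = 0.1746), 4 (0.1537) or 5 (0.1609), or PIN replicate 2 (0.2689), 3 (0.2008) or 4 (0.1885).

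Kif23 was read by 3 clones that differed among themselves. In the clone fit, where 2.16% of all clones passed in either direction, the first clone ran from 0.63 to 1.63 on invasive arrays, against -0.31, 0.31 and -0.30 on PIN arrays (difference 1.18, adjusted p = 0.08916). The second differed by 1.27 (adjusted p = 0.152), with invasive replicate 1 at -0.13 inside the PIN range. The third went the other way by a small amount, with a difference of -0.17 (adjusted p = 0.918). Correlations between the 3 clones over the 9 arrays lay between -0.53 and 0.90, so the averaged value of Kif23 joins a pair of clones that moved together and one that did not. With the median of the clones in place of their mean, the difference of Kif23 was 1.19 (adjusted p = 0.05587).

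Kif2c is a kinesin that does not walk but shortens microtubules at kinetochores, freeing wrongly attached chromosomes. It lay at 0.43 to 1.76 on invasive arrays (median 0.59), against -0.31, 0.09 and 0.09 on PIN arrays. All invasive values were above all PIN values, with replicates 3 and 6 (1.76 and 1.39) far above the other 4. The difference of 0.91 (SE 0.31, 1.88-fold) missed the threshold, at an adjusted p of 0.1688.

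Kif18a, which damps the swinging of chromosomes at the metaphase plate, differed by 0.60 (SE 0.24, adjusted p = 0.2626), with 0.03 to 1.03 on invasive arrays (median 0.39), against -0.36, 0.01 and 0.10 on PIN arrays. Its groups overlapped through invasive replicate 1 alone. Kif11, which pushes the spindle poles apart, ran from -0.02 to 0.78 on invasive arrays (median 0.18), against -0.24, 0.03 and -0.05 on PIN arrays, and differed by 0.34 (95% interval -0.12 to 0.80). Its highest value was on invasive replicate 1, where most other mitotic kinesins were lowest.

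Kif22, a chromosome-binding kinesin, differed by 0.44 (95% interval -0.14 to 1.02), with 0.23 to 1.40 on invasive arrays, against -0.22, 0.42 and 0.24 on PIN arrays. Its clones disagreed. One lay at -0.38 to 0.25 on invasive arrays, against 0.23, 0.28 and 0.29 on PIN arrays (difference -0.30, adjusted p = 0.6559), and the other at 0.71 to 2.71, against -0.66, 0.55 and 0.19 (difference 1.18, adjusted p = 0.2623). The correlation between the clones was -0.22 over the 9 arrays, and the value of 2.71 was on invasive replicate 3.

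Kif14, a kinesin of the midbody in late cytokinesis, spread from -0.46 to 0.62 on invasive arrays, against -0.46, 0.50 and -0.46 on PIN arrays, and the groups covered the same range (difference 0.17, interval -0.50 to 0.83). Kif2a, a relative of Kif2c that acts at spindle poles and also in neurons, was the only mitotic kinesin with a negative difference, at -0.09 (interval -0.55 to 0.37), and its 3 clones differed by 0.40, -0.51 and -0.16. For both genes the interval spans changes in either direction.

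**Figure D2:**
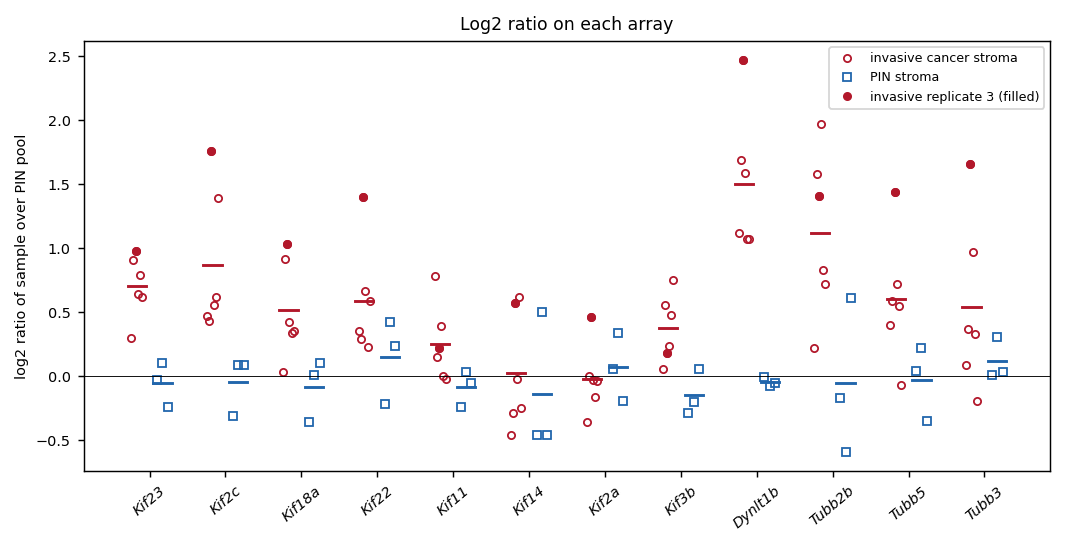
Log2 ratio of sample over PIN pool (y axis) of the 7 mitotic kinesins and 5 other members (x axis) on each array, invasive stroma (circles, 6 arrays, replicate 3 filled) left of PIN stroma (squares, 3 arrays); bars are group means. Invasive replicate 3 is the highest in Kif23, Kif2c, Kif18a, Kif22, Kif2a, Dynlt1b, Tubb5 and Tubb3. Dynlt1b shows the widest gap between groups.

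Within the invasive group, the extremes of the mitotic kinesins fell mostly on a pair of arrays. Invasive replicate 3 held the highest value in 5 of the 7 (71.4%), and was highest in 22.4% of 8087 genes with a value on every array. Invasive replicate 1 held the lowest in 4 of the 7 (57.1%), and was lowest in 16% of all genes. The class median was 0.98 on invasive replicate 3 and between 0.29 and 0.42 on the other invasive arrays, against -0.24, 0.10 and -0.05 on the PIN arrays. Without invasive replicate 3, the count of mitotic kinesins passing was 2, Kif23 and Kif2c, in place of 1, while 11.1% of all genes passed in either direction, in place of 5.64%.

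Partners of these motors in the spindle were read as a separate list of genes that are no members, with 29 tested. Of these 11 were higher (37.9%, against 3.75% of all genes) and 0 were lower (against 1.89%). All 29 differences were positive, with a median of 0.81. The list was chosen with earlier results of these data known. Racgap1, which forms the centralspindlin complex with Kif23, differed by 1.65 (SE 0.45, adjusted p = 0.1052), with 0.52 to 2.64 on invasive arrays, against -0.13, -0.08 and -0.07 on PIN arrays. Ndc80 (1.85) and Nuf2 (1.11), which hold microtubules at the kinetochore, and Bub1b (0.99), a spindle checkpoint kinase, also passed. Prc1, the antiparallel bundler of the central spindle, differed by 0.33 (adjusted p = 0.4297), Tpx2, a spindle assembly factor, by 0.26, and Cenpe, itself a kinetochore kinesin under another name, by 0.12, and none of these 3 passed. Mki67 and Ccna2 stand in this list and among the proliferation markers as well.

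Of 11 proliferation markers 5 were higher in invasive stroma, among them Cdk1 (1.63, adjusted p = 0.06723) and Mki67 (1.28, adjusted p = 0.1436), and the list median was 2.10 on invasive replicate 3 and 0.21 to 0.99 on the other invasive arrays, against -0.17, -0.06 and 0.12 on PIN arrays. Of 9 markers of neuroendocrine and neuronal cells 1 was higher by the test (Foxa2, 2.50), while all 9 differences were positive, with list medians of 0.34 to 2.12 on invasive arrays, highest on replicate 3, against 0.29, -0.17 and -0.10 on PIN arrays. Macrophage markers were higher in 6 of 6, with medians of 2.68 to 2.83 on 5 invasive arrays and 0.84 on replicate 3, against -0.38, 0.41 and -0.28 on PIN arrays. Fibroblast markers were higher in 3 of 9, smooth muscle markers lower in 2 of 4, and endothelial markers higher in 1 of 5, with all 5 positive and a median of 1.08. These lists also stood apart on invasive replicate 3. Fibroblast medians were 0.04 there and 0.76 to 1.40 on the other invasive arrays. Endothelial medians were 0.32 there and 1.14 to 1.64 on the others, and smooth muscle medians -0.39 there and -3.96 to -0.84 on the others. Of 9 epithelial markers 0 passed and 7 were negative in limma (1 lower at an unadjusted p under 0.05). Their list medians were -1.22 to -0.11 on invasive arrays, highest on replicate 3. The PIN medians were -0.96, -0.92 and 0.65, with replicate 4 above all others. Of all genes 3.75% were higher and 1.89% lower by the same test. The part of these cell types in the values of the motors was not tested, and ratios cannot show which markers were near 0.

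**Figure D3:**
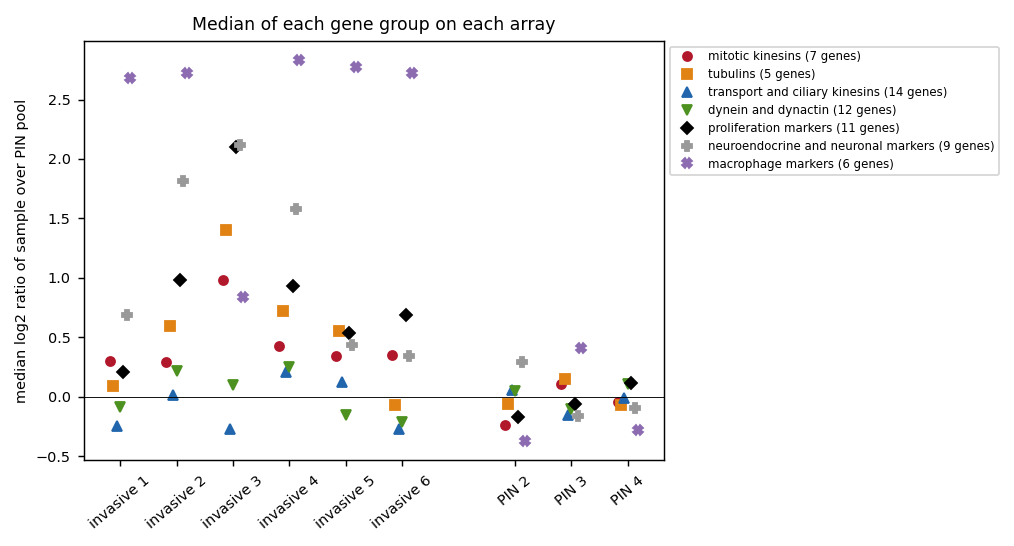
Median log2 ratio of sample over PIN pool (y axis) of the 4 larger member classes and of 3 marker lists on each of the 9 arrays (x axis), invasive left of PIN. Mitotic kinesins, tubulins and proliferation markers are highest on invasive replicate 3, where macrophage markers are lowest among the invasive arrays, and transport kinesins and dynein stay near 0.

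The transport and ciliary kinesins showed no gene past the threshold in either direction at an adjusted p under 0.15, and their differences ran from -0.44 to 0.52. Kif3b, which pairs with Kif3a and carries cargo along cilia, was the one gene of the class whose groups did not overlap, with 0.06 to 0.75 (median 0.36), against -0.29, -0.20 and 0.06. The lowest invasive and the highest PIN value were both 0.06 after rounding. The difference of 0.52 (SE 0.20) missed the threshold, with an adjusted p of 0.2382.

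Kif3a lay at 0.24 to 0.80 on 5 invasive arrays and at -0.72 on invasive replicate 6, against 0.36, -0.57 and 0.01 on the PIN arrays, and the replicate that was lowest for Kif3a was the highest for Kif3b (difference 0.35, interval -0.34 to 1.04). Kifap3, the adaptor of this motor, differed by 0.02. At the other end, Kifc3, a minus-end kinesin of epithelial junctions, differed by -0.44 (interval -1.12 to 0.24), with -1.003 to -0.28 on invasive arrays (median -0.50), against 0.59, 0.14 and -1.05 on PIN arrays, where replicate 4 lay below all others. Kif27, a ciliary kinesin, differed by -0.42 (interval -1.07 to 0.23).

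Kif5b, the heavy chain of conventional kinesin, was read by 3 clones and differed by -0.12 (interval -0.50 to 0.26), with -0.49 to -0.14 on invasive arrays, against -0.42, -0.10 and -0.17 on PIN arrays. Its light chain partner Klc1 differed by 0.33 and Klc4 by -0.33. Kif1b and Kif1c, carriers of organelles and vesicles, differed by -0.13 and -0.23. Kif26a, Kif7 and Kif19a differed by 0.35, 0.25 and 0.24, and Kif9 by -0.23. Kif16b, Kif13a and Kifc2 lay between -0.09 and 0.05. All these intervals include 0.

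Dynlt1b, a light chain of the Tctex type that links dynein to cargo, had the largest difference of all 40 members. Its ratios ran from 1.07 to 2.47 on invasive arrays (median 1.35), against -0.01, -0.08 and -0.05 on PIN arrays. The groups did not overlap. The invasive arrays spread more widely than the 3 PIN arrays, each of which was set against a pool holding its own RNA. Invasive stroma averaged 1.501 ± 0.55 (SD, n = 6) and PIN stroma -0.05 ± 0.04 (SD, n = 3), and the difference was 1.55 (SE 0.29), or 2.93-fold (adjusted p = 0.03713), and it was the one member to pass at 0.05 as well. Leaving out PIN replicate 2 ended the call (adjusted p = 0.1576), and no other single array did. Mouse chromosome 17 carries near-identical copies of this gene, and a single cDNA clone cannot tell them apart.

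No other subunit of dynein or dynactin passed, and the class split into 6 positive and 6 negative differences. Dynlt3, the other Tctex light chain on the array, differed by 0.13 (interval -0.53 to 0.78), and its ratio was -0.996 on invasive replicate 3, where Dynlt1b was at its highest. The heavy chain Dync1h1, which holds the motor itself, differed by 0.03 (interval -0.46 to 0.52), with -0.27 to 0.49 on invasive arrays, against 0.08, 0.14 and -0.15 on PIN arrays. Of the light intermediate chains, which hold the cargo adaptors, Dync1li1 differed by 0.00 (interval -0.49 to 0.49) and Dync1li2 by -0.43 (interval -0.96 to 0.10), or by -0.11 without PIN replicate 4. The intermediate chain Dync1i2 differed by 0.33, with its 2 clones correlated at 0.73 over the 9 arrays.

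Among the remaining light chains, Dynll2 differed by -0.45, where invasive replicate 6 alone lay at -1.36, and Dynll1 by -0.24. The dynactin pointed-end subunits Dctn5 and Dctn6 differed in opposite directions, at 0.33 and -0.30. Dynlrb1 and Dynlrb2, light chains of the roadblock type, differed by -0.01 and -0.25. Among 16 adaptors and regulators of these motors that are no members, 1 was higher, Nde1, a dynein regulator also needed in mitosis, with a difference of 0.87 (SE 0.19, adjusted p = 0.05121) and 0.46 to 0.90 on invasive arrays, against -0.40, -0.07 and -0.02 on PIN arrays. The median of these 16 was 0.09, and Pafah1b1, Nde1's binding partner, differed by 0.20.

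Of the tubulins, Tubb2b, a beta-tubulin rich in neurons, had the largest difference, 1.17 (SE 0.37, 2.25-fold), and lay just outside the threshold at an adjusted p of 0.1508. It ran from 0.22 to 1.97 on invasive arrays (median 1.12), against -0.17, -0.59 and 0.61 on PIN arrays. The groups overlapped, through invasive replicate 1 (0.22) and PIN replicate 4 (0.61). It passed without invasive replicate 1 (adjusted p = 0.08737), invasive replicate 3 (0.1458) or PIN replicate 4 (0.1132), and not without any of the other arrays, up to 0.4007 without PIN replicate 2 and 0.4418 without PIN replicate 3. Tubb3, the beta-tubulin most used as a neuronal marker, differed by 0.42 (interval -0.33 to 1.17), with -0.19 to 1.66 on invasive arrays, against 0.01, 0.31 and 0.03 on PIN arrays. It was highest on invasive replicate 3, where the median of the neuroendocrine and neuronal markers was also highest, though only Foxa2, Uchl1 and Ddc of those 9 markers peaked there.

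Tubb5, the beta-tubulin of most cells, was read by 7 clones and differed by 0.63 (SE 0.28, adjusted p = 0.3212), with -0.07 to 1.44 on invasive arrays (median 0.57), against 0.04, 0.22 and -0.35 on PIN arrays. Its clones differed by between -0.03 and 0.94, none passed, and 6 of the 7 were positive. Correlations between them over the 9 arrays ran from -0.10 to 0.96. Tubb4b, also widely made, had clones that agreed better, with correlations of 0.90 to 0.97 between its 3 clones, and differed by 0.24 (interval -0.48 to 0.97). Tubb6 differed by 0.33 (interval -0.28 to 0.93). The 3 clones shared by Tuba1b and Tuba1a, which encode alpha-tubulins, differed by 0.46, 0.82 and 0.78, with correlations of 0.94 to 0.95, and none passed (adjusted p = 0.5773, 0.3069 and 0.3597). Invasive replicate 3 was highest in 3 of the 5 tubulin genes, and in all 3 alpha-tubulin clones.

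**Figure D4:**
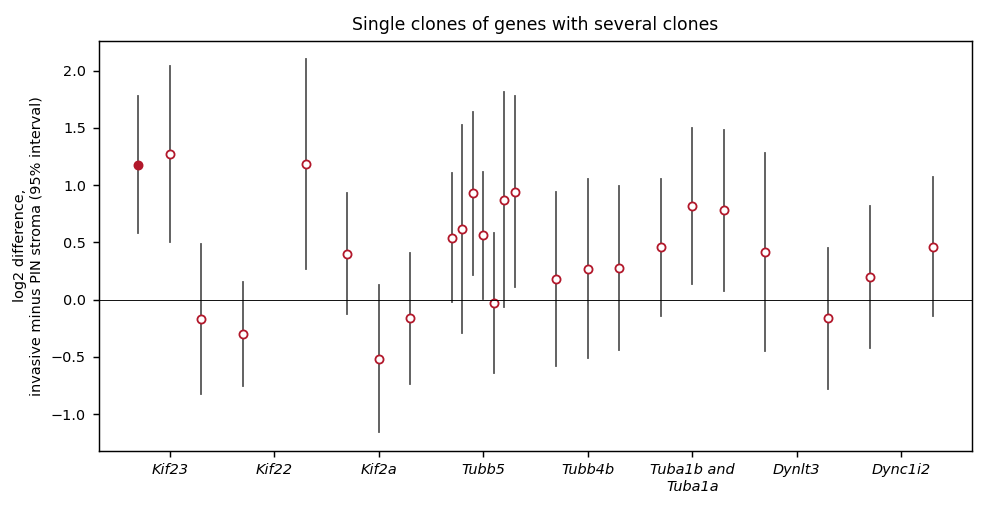
Log2 difference, invasive minus PIN stroma, with 95% interval (y axis) of single clones of genes read by several clones (x axis); filled points passed at an adjusted p under 0.15 in the clone fit. The clones of Kif23, Kif22 and Kif2a fall on both sides of 0, and those of Tubb4b and of Tuba1b and Tuba1a lie on one side.

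The gamma-tubulin ring subunits Tubgcp2 and Tubgcp5, which cap the minus ends from which microtubules grow, differed by -0.07 (interval -0.48 to 0.34) and -0.02 (interval -0.55 to 0.51), with the 2 clones of Tubgcp5 correlated at -0.30. In the list of 15 genes that fold or modify tubulin and are no members, 0 passed in limma and 0 had an unadjusted p under 0.05, with a median difference of 0.05.

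The SD over the 6 invasive arrays had a median of 0.38 in the members and 0.34 in all genes. Invasive replicate 3 was the highest invasive array in 14 of the 40 members (35%, against 22.4% of all genes) and in 0 of the 14 transport kinesins. Invasive replicate 6 was the lowest in 14 of 40 (35%, against 19.4%). The arrays held 17189 to 17206 values each, and over all clones the correlation of an invasive with another invasive array was 0.256 to 0.769, that of a PIN with another PIN array 0.176 to 0.672, and that of an invasive with a PIN array 0.218 to 0.529. PIN replicate 4 stood at 0.176 to 0.189 with the other PIN arrays.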

How the data were processed

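Stroma of 6 invasive and 3 PIN samples was hybridized to cDNA clones spotted on two-color arrays. The authors amplified the RNA, labelled samples with Cy5 and the PIN pool with Cy3, and applied lowess per print-tip group, leaving the background unsubtracted. The deposited unit is the log2 ratio, sample over pool. Spot brightness was not analysed here, and the number of arrays limits the precision.

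Of 17664 rows, 457 held no value, and 12563 carried 1 symbol, 412 several and 4689 none. Each gene's value on an array is the mean of its clones. The 8106 genes measured on 4 or more invasive and 2 or more PIN arrays were fitted by limma (version 3.58.1, R 4.3.3; lmFit, eBayes; two-sided test of invasive minus PIN; Benjamini-Hochberg adjustment, passing at 0.15), and every adjusted p of a gene is from this fit. Adjusted p of single clones are from the same fit over 17207 clones. Intervals are 95% from limma, unadjusted. Each array is of 1 mouse. The fit was tested on simulated data.

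The members and the lists were chosen with earlier results of these data known. Named were all mitotic kinesins, members that passed, and in each class those with the smallest p or largest differences; others appear where a statement turned on them. Alternatives were other tests, array weights, scalings, filters, clone averages, gene naming, a replicate block, a threshold of 0.05 and leaving out each array. Promoters were read from a RefSeq table, and counts over windows near the 5' end were added after seeing the data. Windows of Kif5b and Tubb6 were left out of the members, while the shares over all promoters were not limited in the same way. The motif counts by class therefore cover only the members read. Other tools were matplotlib 3.10.9, pandas 2.3.3, numpy 2.4.6 and Python 3.11.15.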

Additional observations from a re-analysis of the deposited data

Results flagged for a closer look

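Among the 20 named genes, 1 array stood apart from its group. Kif3a lay at -0.72 on invasive replicate 6, and its gap to the nearest of the other invasive arrays was 0.636 of the group's range, above Dixon's critical value for 6 samples. Chance sets apart about 5% of groups by this measure, so 1 in 20 genes is no more than it would give.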

How the results depend on the processing

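Of the 2 members higher in invasive stroma (1 of them a mitotic kinesin) and 0 lower, an equal-variance t-test across genes left 0 and 0 mitotic kinesins higher, and a threshold of 0.05 left 1 and 0. Array quality weights gave 7 higher (Dynlt1b, Dync1i2, Tubb2b, Kif3b and 3 mitotic kinesins, Kif23, Kif2c and Kif18a) and 1 lower, Kifc3, where 20.1% of all genes passed, in place of 5.64%. Leaving out each array in turn gave 0 to 4 higher, 0 to 1 lower and 0 to 2 mitotic kinesins. Over all genes 457 passed, against 54 by the equal-variance test, 207 by the Welch test, 1626 with array weights, and 37 (without PIN replicate 2) to 896 (without invasive replicate 3) with 1 array left out. Deviations of same-numbered arrays from their group means correlated at -0.08, -0.10 and -0.02, and no PIN array correlated best with its own number. Whether same-numbered arrays shared a processing step was not tested. With a replicate block 2 members were higher, 0 of them mitotic kinesins, and 90 of all genes passed. Signs of small differences turned for Kif14 with array weights (0.00), for Kif2a (0.072) and Tubgcp5 (0.0771) with the replicate block, and with 1 array left out for Kif2a (-0.22 to 0.0422), Tubgcp2 (-0.15 to 0.0917) and Tubgcp5 (-0.14 to 0.081). The cause was not tested.

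Tubb2b passed under robust empirical Bayes (adjusted p = 0.149), with the median of clones (0.1473) and with the replicate block (0.08565). It was read by 1 clone, so the median of clones left its own values unchanged and altered only those of other genes. Kif2c passed without invasive replicate 1 (0.1476) and without invasive replicate 3 (0.1258), and Kifc3 was lower without PIN replicate 4 (difference -0.91, adjusted p = 0.114). Median centring, both other scalings, the filters and the naming of genes left 2 members higher and 0 lower.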
